A study of Ostrinia furnacalis with 30 samples.

Results

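Heat shock proteins and the other chaperones named in the annotation of the Asian corn borer, Ostrinia furnacalis, were followed through the life cycle and in larval tissues. The genes were chosen by their written description alone: annotated gene models whose description contains heat shock, lethal(2)essential for life, crystallin, T-complex protein, dnaJ homolog, hsp70 or hsp90. This gave 78 of the 20852 gene models in the table, all from the 17284 that carry an annotation. By description they were sorted into 18 small heat shock proteins, 11 proteins of the Hsp70 family, 2 of the Hsp90 family, 2 mitochondrial chaperonins, 9 subunits of the T-complex protein 1 ring (CCT), 27 DnaJ proteins, 4 co-chaperones and 3 heat shock factor genes. The last 2, a lambda-crystallin homolog and T-complex protein 11-like protein 1, are not known as chaperones and entered through a word of their name.

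Chaperones bind proteins that are unfolded or not yet folded. Small heat shock proteins hold such proteins without using ATP, Hsp70 proteins bind and release them in cycles driven by ATP that DnaJ proteins start, Hsp90 proteins act late on signalling proteins and kinases, and the ring-shaped chaperonins enclose them, CCT in the cytosol for actin and tubulin and Hsp60 with its 10 kDa lid in mitochondria. In insects some of these genes are used in all cells (the cognates), and others are switched on by heat and other stress through the heat shock factor, while many small heat shock proteins are also known to follow the stage or tissue. The gene lethal(2)essential for life is a Drosophila small heat shock protein of the alpha-crystallin family, after which 13 of the 18 members of that class are named here.

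The study sampled wild type insects, reared on artificial diet, as the whole insect at 6 stages (embryos, labelled Egg, from shortly after oviposition, 1st, 3rd and 5th instar larvae, pupae and adults) and as hemolymph, midgut, fat body and silk gland taken from larvae of the 3rd instar. Each of the 10 groups has 3 libraries, each sample pooled several animals, pupae and adults were mixed from females and males, and handling differed between the kinds of sample: whole insects were chilled, washed and frozen, while larvae for tissues were put on ice and dissected or bled, and the tissue went straight into an RNA reagent. No group is labelled as heated or otherwise treated, so the design compares stages and tissues and not a stress with a control. Nothing in the labels says whether the 3 pools of a group came from separate cultures, so p-values measure the spread between these pools.

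Values are FPKM, fragments per kilobase of gene, scaled by a library size that the authors adjusted between libraries, so levels of different genes can be set side by side. The libraries held 10908503 to 17774377 fragments in gene models, recovered from the values. Marker genes fitted the labels in the main: silk genes summed to 114902 to 144560 FPKM in silk gland and to at most 20.4 FPKM in the other tissues. At 1 FPKM or more were 3 of the 5 silk genes in silk gland and 1, 3 and 2 in hemolymph, midgut and fat body. Silk gland libraries also held 14993 to 18515 FPKM of fat body markers and 16857 to 27890 FPKM of midgut markers, below the 134876 to 182924 FPKM and 58713 to 87416 FPKM of those tissues themselves. In such bulk samples, fewer cells of a type and less RNA per cell cannot be told apart.

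Of the 78 genes, 77 had fragments in at least 1 library and 55 in all 30. LOC114361709 (DnaJ subfamily B member 8-like) had none, which allows at most 3 fragments per library, or 0.289 to 2 FPKM. Between 59 genes (fat body) and 71 (5th instar and pupa) reached a mean of 1 FPKM. Summed over all members, the level was lowest in the embryo at 3138 ± 637 FPKM (SD, n = 3) and highest in the 5th instar at 10698 ± 773 FPKM. This order rests on the authors' scaling: as a share of all recovered fragments the members were lowest in the silk gland and highest in hemolymph, at 0.582% and 1.71%, and the embryo (1.42% ± 0.241) and the 5th instar (1.36% ± 0.299) differed by less than their spread (SD, n = 3). A single gene led in 9 of the 10 groups, heat shock 70 kDa protein cognate 4 (LOC114359959), with 21.1% of the members' summed FPKM in the embryo and 55.7% in the silk gland. In the 5th instar a small heat shock protein, LOC114363666, stood first with 27.5%.

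**Figure D1:**
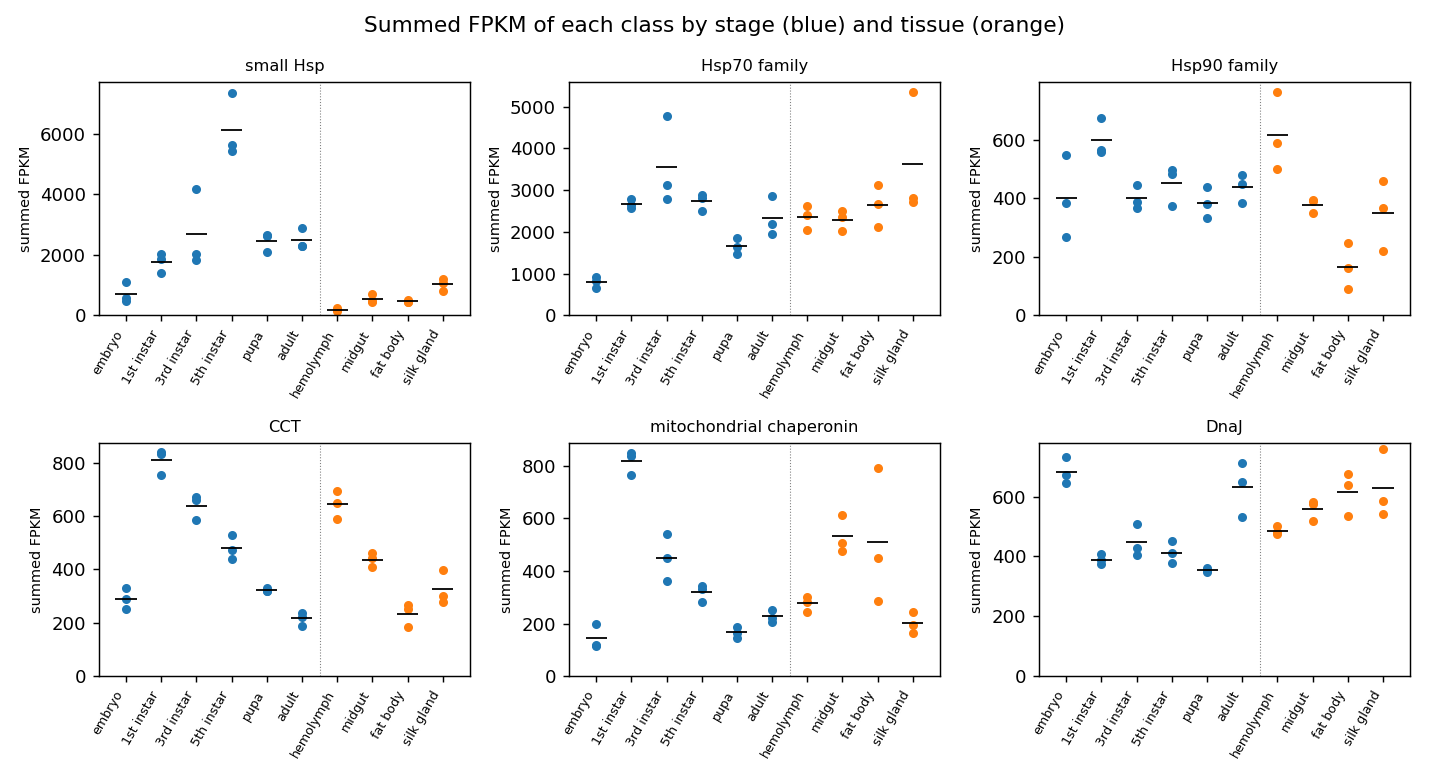
Summed FPKM of 6 chaperone classes (vertical axes, each starting at 0) in the 10 groups, with each of the 3 libraries as a point (blue for stages, orange for tissues) and the mean as a bar. Small heat shock proteins peak in the 5th instar at 6135 FPKM and stay at 187 to 1028 FPKM in the tissues, while CCT and the mitochondrial chaperonins have their highest mean in the 1st instar.

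A difference among the 6 stages was called for 69 of 75 members tested, where 85.6% of all genes tested were called. Called means here and below a Benjamini-Hochberg adjusted p under 0.05 in limma over all genes tested and a difference of at least 1 on the log2(FPKM + 1) scale, which understates the change of genes near or under 1 FPKM. All 18 small heat shock proteins, all 11 Hsp70 proteins and all 9 CCT subunits were among the 69. The 6 not called were heat shock protein 83 (LOC114356220), the co-chaperones Cdc37 (LOC114366595) and Hsp70-Hsp90 organizing protein 3-like (LOC114363910), heat shock factor-binding protein 1 (LOC114349645) and the DnaJ proteins of subfamily A member 2-like (LOC114353616) and C member 5 (LOC114356854). With libraries scaled by recovered fragments these 6 were called too, and 76 of 77 tested in all. The share of all genes called on that scale was not counted, so the 76 cannot be set against a background. Among the 4 tissues 46 of 67 members tested were called, where 65.4% of all genes were. Both shares on the authors' scaling, 69 of 75 and 46 of 67, lie near those of all genes. The median range over the stages was 4.56 on the log2 scale for the small heat shock proteins, 3.49 for the Hsp70 family, 1.87 for the DnaJ proteins and 2 for all genes tested.

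The steps of the life cycle differed in how many members they moved. From embryo to 1st instar, 23 of 68 members tested were called higher (34.6% of all genes) and 18 lower (24.7%), near the background in both directions. From 1st to 3rd instar 2 of 62 were called higher (7.72% of all genes) and 1 lower (6.7%). From 3rd to 5th instar 11 of 68 were called higher (6.81% of all genes) and 1 lower (4.08%). From 5th instar to pupa 5 of 71 were called higher (7.82% of all genes) and 6 lower (12.4%), and from pupa to adult 12 of 71 were called higher (21.9% of all genes) and 22 lower (25%). Every member called in these steps had 3 libraries that did not overlap the 3 of the other stage. A call on 3 libraries a side itself favours such a gap. The share over all called genes was not counted, so the gap adds no support.

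These splits depend on how libraries are scaled. The authors' scaling factors run from 0.447 in a silk gland library to 2.42 in an embryo library. With each library scaled to its total fragments instead, the median log2 difference of all genes moved from 0.14 to -0.96 for 1st instar against embryo, from -0.01 to -0.35 for 3rd against 1st instar, from 0.05 to 0.23 for 5th against 3rd instar, from 0.03 to 0.78 for pupa against 5th instar and from -0.07 to -0.75 for adult against pupa. The members moved with it: 11 higher and 34 lower for 1st instar against embryo, 2 and 9 for 3rd against 1st instar, 13 and 1 for 5th against 3rd instar, 19 and 3 for pupa against 5th instar, and 6 and 39 for adult against pupa. Their medians under that scaling were -0.98, -0.60, 0.39, 0.68 and -1.08 in the same order.

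Small heat shock proteins formed the class with the widest swings. Its summed level was 710 ± 340 FPKM in the embryo, 1764 ± 324 FPKM in the 1st instar, 2671 ± 1302 FPKM in the 3rd, 6135 ± 1046 FPKM in the 5th, 2462 ± 310 FPKM in the pupa and 2486 ± 348 FPKM in the adult (SD, n = 3 each). In the 4 tissues it lay between 187 ± 53.3 FPKM (hemolymph) and 1028 ± 195 FPKM (silk gland), below each of the larval stages. The genes behind the sum changed with the stage. In the embryo LOC114358386 and LOC114358382 held 65.0% of it, in the 5th instar LOC114363666 and the alpha-crystallin A chain-like gene (LOC114349984) held 70.4%, and in the pupa LOC114358386 led again with 25.2%.

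**Figure D2:**
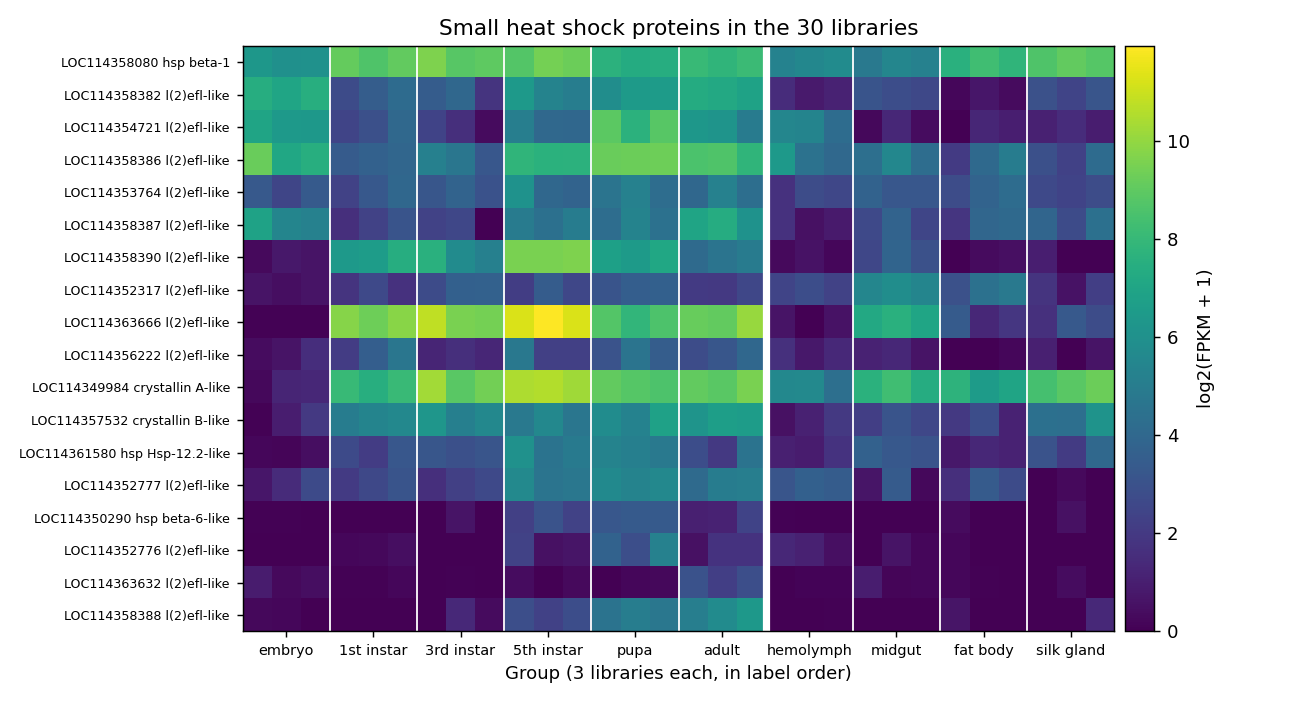
The 18 small heat shock protein genes (rows) in the 30 libraries (columns, 3 per group in label order), coloured by log2(FPKM + 1), with stages left and tissues right of the wide line. Several genes that are bright in embryo, pupa and adult, such as LOC114358386 and LOC114354721, are dim in 1st and 3rd instar larvae, where LOC114363666 and LOC114358080 are bright.

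From embryo to 1st instar 8 of 14 small heat shock proteins tested rose and 4 fell (7 and 4 when scaled by recovered fragments). LOC114363666 (NW_021137421.1, 486541 to 490784, plus strand), a lethal(2)essential for life-like gene, stood at 0.0592, 0.0611 and 0.0575 FPKM in the 3 embryo libraries, which is 2 fragments in each, and at 879, 631 and 903 FPKM in the 1st instar. The difference on the log2(FPKM + 1) scale was 9.55 (SE 0.16, adjusted p = 6.12e-08). The gene was thus near 0 in the early embryo and among the most abundant members in the 1st instar. Alpha-crystallin A chain-like LOC114349984 (NW_021131006.1, 63790 to 64564, plus strand) had 0.180, 1.34 and 1.54 FPKM in embryos and 261, 176 and 268 FPKM in 1st instar larvae (log2 difference 6.92, SE 0.32, adjusted p = 2.66e-06). LOC114358390 went from 0.220, 0.683 and 0.535 FPKM to 86.4, 94.6 and 172 FPKM (log2 difference 6.27, SE 0.28, adjusted p = 2.36e-06). Heat shock protein beta-1 (LOC114358080), a small heat shock protein that in mammals is abundant in muscle, was abundant in embryos already, at 78.9, 63.6 and 65.5 FPKM, and rose to 549, 397 and 536 FPKM (log2 difference 2.81, SE 0.17, adjusted p = 8.56e-06). The 13 muscle markers (myosin heavy chain, troponins, tropomyosins) moved in the same direction, from a sum of 71.1 to 95.2 FPKM in embryos, with 4 of 13 at 1 FPKM or more and 2 at 0, to 21728 to 29596 FPKM in 1st instar larvae, with 10 of 13 at 1 FPKM or more and 1 at 0. Their part in these differences was not tested.

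The 4 that fell carried much of the embryo's small heat shock protein RNA. LOC114358386 had 590, 138 and 177 FPKM in embryos and 9.87, 12.2 and 14.4 FPKM in 1st instar larvae (log2 difference -4.23, SE 0.51, adjusted p = 0.000229). LOC114358382 had 175, 127 and 178 FPKM and then 5.69, 10.4 and 17.3 FPKM (log2 difference -3.83, SE 0.35, adjusted p = 5.93e-05). LOC114354721 and LOC114358387 fell by 3.47 and 3.51 on the log2 scale, with adjusted p of 0.00019 and 0.000642 in limma. In pupae all 4 had higher means again, from 26.4 FPKM for LOC114358387 to 619 FPKM for LOC114358386. The first embryo library was the highest of the 3 for LOC114358386, LOC114354721 and LOC114358387.

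Between the 1st and the 3rd instar only LOC114349984 was called in this class. It had 1260, 467 and 672 FPKM in the 3rd instar (log2 difference 1.66, SE 0.39, adjusted p = 0.0322) and lost the call without any 1st instar library or without the third of the 3rd instar.

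The 3rd and the 5th instar differed mainly in this class. Of 16 small heat shock proteins tested 9 rose and the median difference was 2.09 on the log2 scale, against 0.05 for all genes (10 of 16 and 2.11 when scaled by recovered fragments). LOC114358390 (NW_021134144.1, 106988 to 107747, plus strand) had 193, 52.7 and 36.3 FPKM in the 3rd instar and 747, 753 and 784 FPKM in the 5th (log2 difference 3.38, SE 0.59, adjusted p = 0.0148). LOC114358386 had 36.0, 24.4 and 8.48 FPKM and then 225, 196 and 204 FPKM (log2 difference 3.33, SE 0.49, adjusted p = 0.00859). LOC114358387 had 4.09, 4.76 and 0 FPKM and then 30.6, 20.6 and 31.2 FPKM (log2 difference 3.18, SE 0.67, adjusted p = 0.0284). The 5th instar libraries lay close together for these genes, while the 3rd instar libraries spread over several fold. The most abundant member, LOC114363666, was not called here: it had 1755, 737 and 707 FPKM in the 3rd and 2429, 3936 and 2451 FPKM in the 5th instar.

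The count of this step rests on few libraries. Of the 11 members called higher, 7 were left without the first 5th instar library, 7 without the second and 5 without the third, and 5 in limma-voom on the recovered fragments. LOC114358387 was not called with the replicate number as a block (adjusted p = 0.0501). LOC114358390 lost its call without the second or the third 5th instar library, with log2 differences of 3.39 and 3.36. In all of these settings its direction was the same.

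In the pupa the class split. Of 17 tested, 4 fell and 4 rose, and 2 fell and 9 rose when scaled by recovered fragments. Those that fell were the ones high in larvae: LOC114363666 (423, 230 and 394 FPKM in pupae, log2 difference -3.08 from the 5th instar, SE 0.31, adjusted p = 0.00153), LOC114358390 (110, 90.1 and 139 FPKM, -2.76, SE 0.19, adjusted p = 0.000508), LOC114349984 (538, 437 and 386 FPKM) and LOC114358080 (205, 164 and 175 FPKM). Muscle markers were lower too, at 2744 to 3283 FPKM in pupae against 10626 to 27240 FPKM in the 5th instar, and their part was not tested. LOC114354721 (NW_021132394.1, 622431 to 623227, plus strand) rose the most of the class, from 33.9, 15.3 and 14.9 FPKM to 490, 203 and 464 FPKM (log2 difference 4.11, SE 0.45, adjusted p = 0.00196). LOC114352776 rose from 4.09, 0.471 and 0.581 FPKM to 12.6, 6.34 and 37.4 FPKM (log2 difference 2.78, SE 0.72, adjusted p = 0.0278). It lost this call in limma-voom and without the second or the third 5th instar library or the first or the third pupa library. LOC114358388 rose from 6.33, 3.93 and 6.06 FPKM to 22.2, 32.4 and 25.9 FPKM (log2 difference 2.12, SE 0.23, adjusted p = 0.00187). LOC114358386 rose to 597, 619 and 642 FPKM, with the 3 libraries close together.

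From pupa to adult 3 of the 18 rose and 6 fell (2 and 9 when scaled by recovered fragments), where 21.9% of all genes were called higher and 25% lower. LOC114354721 fell by 2.67 on the log2 scale to 77.9, 72.5 and 30.3 FPKM (SE 0.46, adjusted p = 0.00205), and LOC114352776 fell by 2.62 to 0.452, 2.39 and 2.37 FPKM (SE 0.63, adjusted p = 0.00874). LOC114358387 rose to 126, 167 and 67.5 FPKM. LOC114363632 (NW_021137421.1, 426156 to 428333, plus strand) had 7.14, 3.63 and 6.31 FPKM in adults and at most 0.926 FPKM in any other of the 30 libraries. It rose by 2.54 from the pupa (SE 0.25, adjusted p = 0.000196). The same step brought ovary and eggshell markers from 63.1 to 314 FPKM in pupae, with 11 of 21 at 1 FPKM or more, to 1909 to 4150 FPKM in adults, with 14 of 21, and 1 of the 21 at 0 in each. Embryos had 161 to 209 FPKM of these markers, with 5 of 21 at 1 FPKM or more and 12 at 0, and 1st instar larvae 26.3 to 30.3 FPKM. Their part in the members high in adults was not tested.

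Position in the genome did not go with a shared profile in every case. A stretch of NW_021134144.1 from 95138 to 126555 holds 8 gene models, of which 5 are lethal(2)essential for life-like: LOC114358387, LOC114358386, LOC114358388, LOC114358390 and LOC114358382 in that order. Their highest stage by mean FPKM was the adult for LOC114358387 (120.0 FPKM) and LOC114358388 (55.9 FPKM), the pupa for LOC114358386 (619 FPKM), the 5th instar for LOC114358390 (761 FPKM) and the embryo for LOC114358382 (160.0 FPKM). LOC114358390 and LOC114358388 lie 2134 bases apart, and in the 1st instar the former had 118 FPKM on average and the latter no fragment, which allows at most 0.319 FPKM per library. On NW_021131678.1, LOC114352777 and LOC114352776 lie 312 bases apart on opposite strands and both had their highest stage mean in the pupa, 45.6 and 18.8 FPKM. Genes of this family resemble each other, and how reads were divided among near-identical copies in this table is uncertain, so the split between copies is too.

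The rest of the class was less abundant. LOC114353764 and Hsp-12.2-like LOC114361580 had their highest stage mean in the 5th instar, at 31.9 and 38.6 FPKM. For LOC114353764 this rests on the first 5th instar library, at 4.61 times the higher of the others. By the mean of log2(FPKM + 1) its highest stage was the pupa. For LOC114361580 that library was at 2.24 times the higher of the others, and the 5th instar was highest on both scales. Heat shock protein beta-6-like LOC114350290 had its highest stage mean in the pupa, at 9.09 FPKM. LOC114350290 had no fragment in the 1st instar, which allows at most 0.228 FPKM per library. LOC114352317 stayed at 0.384 to 12.3 FPKM in all whole-animal libraries and was higher in the midgut, as described for the tissues.

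The Hsp70 family was led everywhere by cognate 4 (LOC114359959, NW_021134996.1, 38298 to 42728, minus strand), the constitutive cytosolic Hsc70 of insects. It had 695, 531 and 758 FPKM in embryos and 2402, 2415 and 2554 FPKM in 1st instar larvae, and no embryo library reached any later one. The log2 difference was 1.91 (SE 0.20, adjusted p = 9.64e-05). After that it varied less, with means of 3414 ± 1040 FPKM in the 3rd instar, 2413 ± 191 in the 5th, 1482 ± 145 in the pupa and 2190 ± 444 in the adult (SD, n = 3). Scaled by recovered fragments, the range over the stages shrank to 0.66 on the log2 scale and was no longer called. Among tissues it had means from 2188 FPKM (midgut) to 3521 FPKM (silk gland), a range of 0.61 on the log2 scale that was not called (adjusted p = 0.158), while scaled by recovered fragments the range was 1.43 and called (adjusted p = 0.00059).

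The mitochondrial member, cognate 5 (LOC114358993), behaved otherwise. It had 11.2, 13.9 and 12.8 FPKM in the 5th instar, 3.54, 4.64 and 5.78 FPKM in the pupa and 0.683, 0.305 and 0.535 FPKM in the adult, with no overlap between neighbours in this order. The step to the pupa was -1.28 on the log2 scale (SE 0.20, adjusted p = 0.00544) and the step to the adult -1.90 (SE 0.22, adjusted p = 0.000368). Heat shock 70 kDa protein 4 (LOC114366206), a relative of Hsp70 that in mammals helps it exchange nucleotide, declined in steps, with means from 73.7 FPKM in the embryo to 25.2 FPKM in the adult (log2 difference -1.52, SE 0.16, adjusted p = 9e-05). Heat shock 70 kDa protein 14 (LOC114360324) went the other way in the adult, from 14.0, 11.4 and 12.4 FPKM to 41.0, 45 and 28.3 FPKM (log2 difference 1.5, SE 0.21, adjusted p = 0.000831).

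Hsp68 is one of the heat-inducible Hsp70 proteins of Drosophila, and 7 members are described as like it. Together they summed to between 24.4 and 388 FPKM in the larval libraries and to at most 10.3 FPKM in any tissue library, although the tissues came from 3rd instar larvae. The tissues were handled differently from whole insects, as given above, and the part of this was not tested. LOC114353217 (NW_021131877.1, 731307 to 733829, minus strand) stood apart from the other 6. It had 33.8, 17.7 and 14.2 FPKM in embryos, 4.70, 4.79 and 2.31 FPKM in adults, and at most 0.168 FPKM in every other library. From embryo to 1st instar it fell by 4.35 on the log2 scale (SE 0.32, adjusted p = 1.87e-05), and from pupa to adult it rose by 2.10 (SE 0.25, adjusted p = 0.000409). The ovary and eggshell markers given above summed to 161 to 209 FPKM in embryos, 63.1 to 314 FPKM in pupae and 1909 to 4150 FPKM in adults. In embryos 5 of 21 were at 1 FPKM or more and 12 at 0, and their part was not tested.

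A pair of others, LOC114357330 and LOC114358443, were low until the 3rd instar and rose later. LOC114357330 had 0.0552, 0.316 and 0.585 FPKM in the 3rd instar and 7.92, 12 and 9.87 FPKM in the 5th (log2 difference 3.05, SE 0.27, adjusted p = 0.00256), and its highest mean was in the pupa at 15.7 FPKM. LOC114358443 had 0.485, 0.669 and 0.660 FPKM and then 4.81, 5.95 and 6.48 FPKM (log2 difference 2.07, SE 0.22, adjusted p = 0.00369), and rose again to 23.2, 23.8 and 18.8 FPKM in the pupa. The 46 sperm markers summed to 19.2 to 33.5 FPKM in the 3rd instar, 135 to 190 FPKM in the 5th, 274 to 391 FPKM in the pupa and 195 to 345 FPKM in the adult. At 1 FPKM or more were 8, 18, 24 and 20 of them in the same order, and 9, 9, 0 and 4 were at 0. Their part was not tested.

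The remaining 4 differed widely between libraries of the same stage. LOC114354259 (NW_021132275.1, 35685 to 37917, minus strand) had 136 FPKM in the first 5th instar library and 13.0 and 13.3 FPKM in the others, 10.3 times the higher of them. In embryos it had 0.0375, 0.904 and 11.7 FPKM, in pupae 16.3, 72.7 and 21.1 FPKM, and in adults 6.83, 13.8 and 29.2 FPKM. The same libraries were high for other members. LOC114354725 had 35.5, 1.60 and 1.5 FPKM in the 5th instar, LOC114363773 had 9.45, 0.171 and 0.562 FPKM, and the small heat shock protein LOC114356222 had 26.4, 3.78 and 3.77 FPKM.

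As a description, the deviations of log2(FPKM + 1) from the stage means were compared over the 18 whole-animal libraries, with LOC114354259 taken as reference after its values were seen. Pearson's r was 0.88 for LOC114363773, 0.87 for LOC114356222, 0.82 for LOC114354725 and 0.82 for LOC114356221, and these 4 of the other 74 members lay at 0.7 or above, as did 59 of 14728 genes (0.401%). The points share libraries, so a library that stands apart moves all of them. Without the first 5th instar library the 4 values were 0.83, 0.80, 0.76 and 0.92. LOC114354259 was highest in the same library as LOC114356221 and LOC114363773 in all 6 stages. In the 5th instar the constitutive members did not stand out in the first library in FPKM. Cognate 4 had 2343, 2267 and 2629 FPKM and heat shock protein 83 had 457, 345 and 458 FPKM. This rests on the authors' factors, 1.13, 0.745 and 0.795 for the 3 libraries. In recovered fragments the first library was the highest for both. Cognate 4 had 92304, 62467 and 70504, heat shock protein 83 had 20166, 10637 and 13751, and LOC114354259 had 5549, 371 and 367. Cognate 4 had an r of 0.45 and was highest in the same library as LOC114354259 in 5 of 6 stages.

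**Figure D3:**
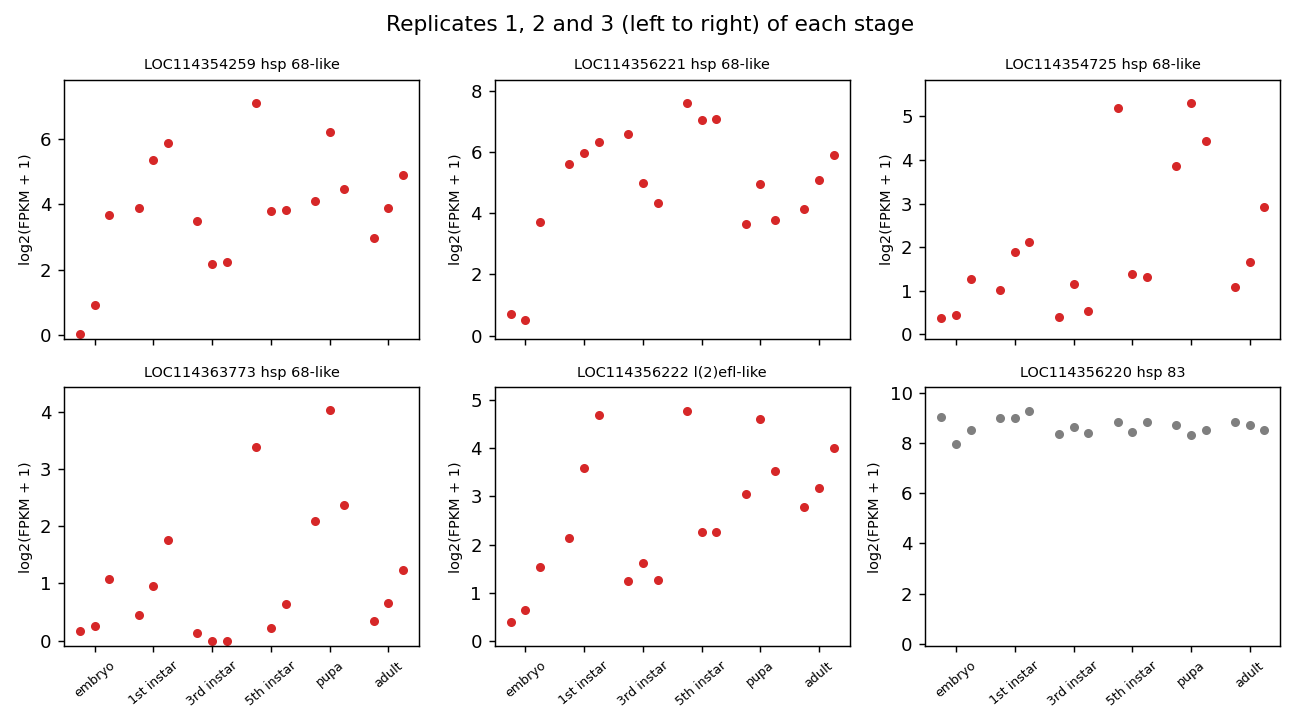
log2(FPKM + 1) (vertical axes) of 5 members that deviate together and of heat shock protein 83 (grey) in the 18 whole-animal libraries, with replicates 1, 2 and 3 of each stage from left to right. The first 5th instar library stands above the other 2 for the 4 hsp68-like genes and for LOC114356222, at 136 against 13.0 and 13.3 FPKM for LOC114354259.

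The spread within stages bears on the tests of these genes. LOC114354259 fell from 13.9, 40.1 and 57.4 FPKM in the 1st instar to 10.2, 3.54 and 3.74 FPKM in the 3rd (log2 difference -2.40, SE 0.59, adjusted p = 0.0354), and this was the only member called lower in that step. It was not called with the replicate number as a block (adjusted p = 0.0622), nor without the second or the third library of either stage, without the filter (adjusted p = 0.0519) or with all libraries in 1 fit (adjusted p = 0.0919). LOC114356221 (NW_021132941.1, 318732 to 320909, minus strand) spread least of the 4 in the 5th instar, with 194, 131 and 135 FPKM, and fell in the pupa to 11.4, 30.2 and 12.7 FPKM (log2 difference -3.12, SE 0.38, adjusted p = 0.0026). LOC114354725 had 13.6, 38.7 and 20.6 FPKM in the pupa and fell in the adult to 1.12, 2.18 and 6.52 FPKM (log2 difference -2.65, SE 0.54, adjusted p = 0.00407). The 3 members LOC114356221, heat shock protein 83 and LOC114356222 are the only gene models between 318732 and 337032 of NW_021132941.1. The outer pair deviated with LOC114354259 as given above, and heat shock protein 83 between them had an r of -0.16.

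Heat shock protein 83 (LOC114356220, NW_021132941.1, 325902 to 328323, minus strand), the cytosolic Hsp90, had stage means that ran from 356 ± 39.8 FPKM (3rd instar) to 548 ± 65.0 FPKM (1st instar), a range of 0.62 on the log2 scale that was not called (adjusted p = 0.143). With recovered fragments as scale, the range was 1.71 and called (adjusted p = 0.00134). Tissues differed: it had 739, 475 and 565 FPKM in hemolymph, 360, 315 and 357 FPKM in midgut, 424, 333 and 196 FPKM in silk gland and 55.7, 77.4 and 197 FPKM in fat body. Fat body was lower than hemolymph by 2.61 (SE 0.44, adjusted p = 0.00194) and lower than midgut by 1.84 (SE 0.44, adjusted p = 0.0122) on the log2 scale. The third fat body library was well above the other 2. The mitochondrial Hsp90, heat shock protein 75 kDa (LOC114365089), had its highest tissue mean in the fat body, at 56.4 FPKM. This order rests on the authors' scaling: with recovered fragments as scale, 2 of 2 Hsp90 family genes had their highest tissue mean in hemolymph.

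Most CCT subunits were higher in the 1st instar than in the early embryo. All 9 genes had their highest stage mean in the 1st instar (5 of 9 when scaled by recovered fragments, and 4 in the embryo). From embryo to 1st instar 8 of 9 rose and the median log2 difference was 1.59, against 0.14 for all genes. Subunit theta (LOC114364152) had 39.6, 37.0 and 47.8 FPKM in embryos and 184, 171 and 160 FPKM in 1st instar larvae (log2 difference 2.03, SE 0.14, adjusted p = 1.36e-05), and gamma (LOC114352389), the smallest called, had 19.1, 20.3 and 22.5 FPKM and 42.1, 48.5 and 37.4 FPKM (log2 difference 1.01, SE 0.14, adjusted p = 0.000471). Delta (LOC114349820) went from a mean of 65.3 to 118 FPKM and was not called. With libraries scaled by recovered fragments the CCT median became 0.35, above the -0.96 of all genes, and limma called 0 of 9, with 2 higher and 1 lower at an unadjusted p under 0.05. With voom on the authors' library sizes 8 of 9 were called.

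Within a stage the 8 subunits other than eta-like stayed within a few fold of each other, from 2.82-fold between the lowest and the highest in the pupa to 4.66-fold in the 3rd instar. In the adult this ratio was 14.2. Epsilon (LOC114350261) was the lowest: it had 25, 17.9 and 24.2 FPKM in pupae and 4.73, 4.28 and 2.42 FPKM in adults (log2 difference -2.30, SE 0.26, adjusted p = 0.000322). Eta (LOC114364686) fell from a mean of 23.0 to 8.64 FPKM and alpha (LOC114359050) from 32.5 to 14.5 FPKM, with log2 differences of -1.35 and -1.14. Delta, zeta (LOC114361892) and beta (LOC114358084) had adult means of 54.2, 54.2 and 32.7 FPKM, against 59.3, 43.3 and 44.8 FPKM in pupae. The subunits take equal places in the known CCT ring, and these RNA levels were not equal in any group. LOC114362476, described as eta-like, was lower than eta in every group and may share reads with it. It fell from 8.19, 8.19 and 9.26 FPKM to 0.101, 1.26 and 2.20 FPKM (log2 difference -2.26, SE 0.38, adjusted p = 0.0019).

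**Figure D4:**
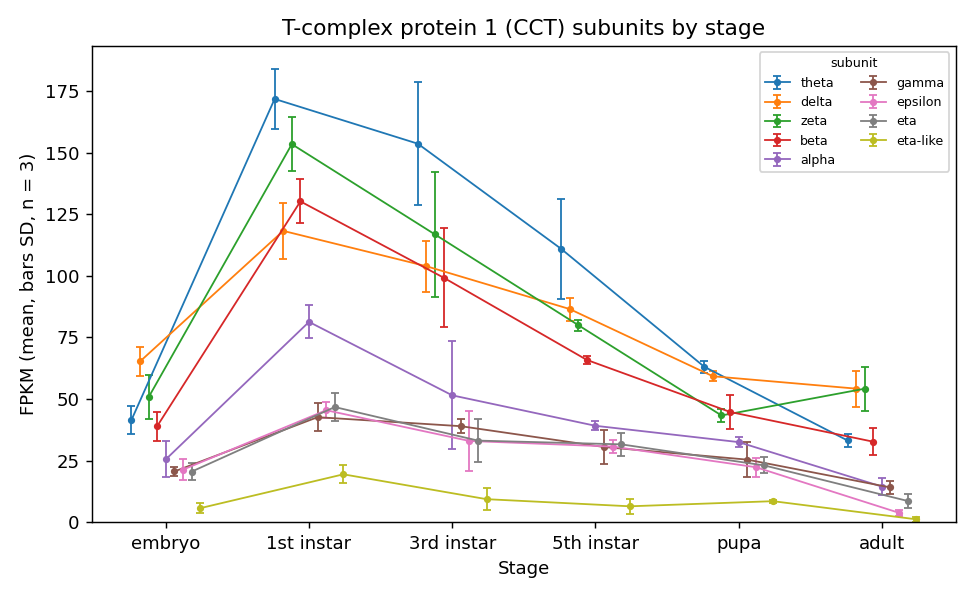
FPKM of the 9 CCT genes (vertical axis from 0, mean with SD, n = 3) in the 6 stages, with lines joining the means of a gene. On this scale all peak in the 1st instar, and in the adult epsilon (3.81 FPKM) and eta-like (1.19 FPKM) lie lowest while delta and zeta (54.2 FPKM each) lie highest.

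Both mitochondrial chaperonins rose from embryo to 1st instar and remained called under every scaling tried. The 10 kDa heat shock protein (LOC114365590, NW_021137843.1, 997085 to 997715, plus strand), the lid of the Hsp60 ring, had 93.1, 64.3 and 68.8 FPKM in embryos and 552, 474 and 480 FPKM in 1st instar larvae (log2 difference 2.74, SE 0.17, adjusted p = 9.53e-06). Heat shock protein 60A-like (LOC114362461) had 104, 48.3 and 50.5 FPKM and then 298, 363 and 286 FPKM (log2 difference 2.29, SE 0.30, adjusted p = 0.00034). The ratio of the lid to the ring stayed between 0.892 and 2.25 over all 30 libraries, while the level of each changed several fold. Both were lower in silk gland than in midgut and fat body, with means of 110.5 FPKM for the lid and 90.3 FPKM for the ring in silk gland.

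Most DnaJ proteins were highest in the embryo. Of the 26 that reached a mean of 1 FPKM in some stage, 19 had their highest stage mean in the embryo and 7 in the adult, and none in the stages between (21, 4 and 1 when scaled by recovered fragments). From embryo to 1st instar 13 of 25 tested fell, where 24.7% of all genes were called lower. At an unadjusted p under 0.05 20 were lower and 2 higher in limma. Scaled by recovered fragments 23 of 26 fell. On that scale the median of all genes fell too, and the share of all genes called lower is not given. The count of 23 therefore does not set the class apart. DnaJ subfamily C member 11 (LOC114356330), which in mammals works at the mitochondrial inner membrane, had 33.8, 35.2 and 31.6 FPKM in embryos and 5.87, 8.94 and 5.88 FPKM in 1st instar larvae (log2 difference -2.15, SE 0.18, adjusted p = 3.66e-05). DnaJ subfamily A member 1 (LOC114360931), a partner of cytosolic Hsc70, had 97.2, 80.3 and 81.5 FPKM and then 32.0, 38.5 and 36.2 FPKM (log2 difference -1.25, SE 0.13, adjusted p = 0.000119). Its partner cognate 4 changed the other way in this step. The most abundant member of the class, subfamily A member 2-like (LOC114353616), had 104 to 169 FPKM on average in every group and was called neither among stages nor among tissues (ranges of 0.69 and 0.20 on the log2 scale, adjusted p of 0.00372 and 0.637). With recovered fragments as scale it was called in both, with ranges of 1.92 (adjusted p = 8.43e-05) and 1.73 (adjusted p = 2.01e-06).

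The embryo set, the members above all 5 other stages in embryos, held 6 of 67 members tested, where 12.8% of all genes were in such a set. Beside LOC114353217 and the 2 DnaJ genes just named these were DnaJ subfamily C member 22 (LOC114362517; 5.30, 7.61 and 4.03 FPKM) and both dnj-5-like genes, LOC114361303 (8.38, 6.57 and 6.94 FPKM) and LOC114357377 (5.99, 4.04 and 5.20 FPKM). The smallest log2 difference to another stage ran from 2.16 for LOC114353217 (against the adult) to 1.03 for LOC114357377 (against the 5th instar). Without the third embryo library the set held 10 members. LOC114362517 left the set without the second embryo library (0.93) or the third 5th instar library (0.98).

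From pupa to adult 6 of 21 DnaJ genes tested rose and 7 fell, where 21.9% of all genes were called higher and 25% lower, and scaled by recovered fragments 3 of 24 rose and 11 fell. Subfamily C member 17 (LOC114350110), a spliceosome protein in other species, had 11.3, 9.69 and 9.27 FPKM in pupae and 99.3, 71.6 and 56.5 FPKM in adults (log2 difference 2.76, SE 0.23, adjusted p = 0.000105). Subfamily C member 9 (LOC114363817), a histone chaperone in humans, had 14.1, 14.7 and 16.9 FPKM and then 105, 108 and 63.7 FPKM (log2 difference 2.49, SE 0.23, adjusted p = 0.000158). Both were also the 2 DnaJ genes of the adult set, which held 3 of 66 members tested where 7.93% of all genes were in such a set; the third was the small heat shock protein LOC114363632. The embryo came next for both, at 39.1, 26.6 and 27.6 FPKM for member 17 and 49.6, 29.3 and 28.8 FPKM for member 9. Scaled by recovered fragments, the log2 difference of adult and embryo was -0.0032 for member 17 (adjusted p = 0.994) and 0.10 for member 9 (adjusted p = 0.824). In the other direction, DnaJ subfamily C member 8 (LOC114362332) went from 16.3, 6.93 and 8.87 FPKM to 1.02, 1.24 and 0.513 FPKM (log2 difference -2.54, SE 0.33, adjusted p = 0.000602). Of the DnaJ proteins not named so far, subfamily C member 30 (LOC114350898) had its highest mean in the adult, at 60.4 FPKM, and subfamily C members 7 (LOC114364089) and 3 (LOC114357913) their lowest, at 3.33 and 2.83 FPKM after 35.8 and 22.2 FPKM in the embryo. Some DnaJ models are neighbours that may be parts of 1 gene, such as LOC114353290 and LOC114353291 (both subfamily B member 14-like, 1339 bases apart on the minus strand of NW_021131888.1), and their values are uncertain.

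The sets of the other stages were small. The 1st instar set held 0 of 61 members tested in limma where 3.83% of all genes were in such a set, and 0 in limma-voom. At an unadjusted p under 0.05 in all 5 comparisons 3 members were higher there: both mitochondrial chaperonins and CCT eta-like. The 3rd instar set held 1 of 59 (1.46% of all genes), the 5th instar set 1 of 68 (0.641%), LOC114358390, and the pupal set 2 of 69 (2.33%), LOC114352776 and LOC114354721. LOC114358390 was higher in the 5th instar than in any other stage by at least 2.75 on the log2 scale (SE 0.27, adjusted p = 0.000527) and left the set without the second or the third 5th instar library. In the pupal set LOC114354721 was above the embryo, its next highest stage, by 1.88 (SE 0.37, adjusted p = 0.00311).

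Heat shock factor (LOC114349821, NW_021130949.1, 2190986 to 2205529, minus strand), the transcription factor that switches on heat shock genes, had 7.86, 9.72 and 9.88 FPKM in embryos, 17.9, 17.4 and 19.4 FPKM in the 1st instar, 14.4, 17.7 and 14.3 FPKM in the 3rd and 13.7, 13.2 and 10.8 FPKM in the 5th. Pupae had 21.5, 18.8 and 22.2 FPKM and adults 10.2, 10.1 and 11.3 FPKM. Of the 15 pairs of stages only pupa against embryo was called, with a log2 difference of 1.11 (SE 0.15, adjusted p = 0.000481). On the scale of recovered fragments this difference was 0.65 and not called (adjusted p = 0.00707), while the pupa was called above the 3rd instar by 1.51, the 5th by 1.57 and the adult by 1.64. Under median-of-ratios scaling it was 1.00 and called when these stages alone were scaled, and with all stages scaled together the range was 0.96, under the threshold. In the 5th instar its first library did not stand above the others as that of LOC114354259 did. In tissues it was higher in fat body (54.5, 36.0 and 27.4 FPKM) than in midgut (14.3, 13.3 and 13.6 FPKM) by 1.40 on the log2 scale (SE 0.27, adjusted p = 0.00499), and silk gland was above midgut by 1.26 (SE 0.16, adjusted p = 0.000609). Both differences hold the authors' scaling. With recovered fragments as scale, 2 of 2 heat shock factor genes tallied had their highest tissue mean in hemolymph. LOC114349821 had 2709, 3825 and 4086 fragments in hemolymph and 3205, 2440 and 1887 in fat body. It had 1288, 1468 and 1142 in silk gland, whose libraries held the fewest fragments, and 1391, 1064 and 1430 in midgut. Of the co-chaperones, the Hsp90 ATPase activator (LOC114359407) rose from pupa to adult (14.9 to 34.8 FPKM on average) and Hsp70-binding protein 1 (LOC114359813) fell (2.53 to 0.309 FPKM). The second heat shock factor model (LOC114350801) had a mean under 1 FPKM in 9 of the 10 groups.

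Among the 4 larval tissues the small heat shock proteins again had wide ranges, with 13 of 14 tested called and a median range of 3.09 on the log2 scale, against 1.5 for all genes. Each tissue had members above all 3 others, and in each the share of members was below that of all genes. The midgut set held 3 of 62 members tested where 12.3% of all genes were in such a set, all of them lethal(2)essential for life-like. LOC114363666 had 145, 188 and 131 FPKM in midgut, 0.541, 0 and 0.507 FPKM in hemolymph, 9.76, 1.54 and 2.70 FPKM in fat body and 2.17, 9.05 and 5.79 FPKM in silk gland (smallest log2 difference 4.68, SE 0.41, adjusted p = 7.2e-05). LOC114358390 had 4.84, 13.6 and 6.87 FPKM in midgut and at most 0.982 FPKM in the other tissues (smallest log2 difference 2.76, SE 0.34, adjusted p = 0.000238). Muscle markers summed to 858 to 1137 FPKM in midgut and to at most 321 FPKM in the other 3 tissues, with 10 of 13 at 1 FPKM or more in midgut and 3, 8 and 8 in hemolymph, fat body and silk gland. Their part was not tested. LOC114352317 had 43.2, 56.9 and 41.8 FPKM in midgut and 6.91, 21.2 and 27.4 FPKM in fat body (log2 difference 1.48, SE 0.47, adjusted p = 0.0374), and lost the call without any midgut library or without the first or second fat body library.

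Some abundant small heat shock proteins had higher FPKM in whole 3rd instar larvae than in the 4 dissected tissues of that instar. Others overlapped the silk gland in FPKM. LOC114363666 averaged 1066 FPKM in the whole animal and at most 154 FPKM in a tissue, and LOC114358390 94.0 and 8.44 FPKM. Heat shock protein beta-1 (LOC114358080) had 804, 451 and 507 FPKM in the whole animal and 408, 542 and 449 FPKM in silk gland. LOC114349984 had 1260, 467 and 672 FPKM in the whole animal and 342, 467 and 605 FPKM in silk gland. This overlap rests on the authors' factors, 0.558 to 0.888 in the 3rd instar and 0.447 to 0.491 in silk gland. In recovered fragments LOC114358080 had 8916 to 11395 in the whole animal and 3351 to 4578 in silk gland. LOC114349984 had 4666 to 9019 and 1421 to 2488. The libraries held 14709897 to 16540782 and 10908503 to 12320511 fragments in all. Muscle markers summed to 23041 to 54137 FPKM in whole 3rd instar larvae, and their part was not tested. Whole animals and tissues were not tested against each other.

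The silk gland set held 4 of 61 members tested (9.4% of all genes). DnaJ subfamily C member 22 (LOC114362517) had 58.3, 15.3 and 13.7 FPKM in silk gland and 0.393 to 2.15 FPKM in the other tissues (smallest log2 difference 3.18, SE 0.53, adjusted p = 0.00267). Alpha-crystallin B chain-like (LOC114357532) had 20.3, 19.7 and 69.0 FPKM against at most 7.55 FPKM elsewhere (2.35, SE 0.50, adjusted p = 0.0067). DnaJ subfamily C member 1-like (LOC114363046), whose mammalian counterpart sits in the membrane of the endoplasmic reticulum, had 45.7, 21.2 and 14.0 FPKM against at most 9.50 FPKM (1.61, SE 0.44, adjusted p = 0.0228). Alpha-crystallin A chain-like (LOC114349984) had 342, 467 and 605 FPKM in silk gland and 199, 310 and 166 FPKM in midgut (1.08, SE 0.30, adjusted p = 0.0214). For the DnaJ genes the first silk gland library was the highest, and for the crystallins the third. Without the second silk gland library the set held 2 members, and scaled by recovered fragments 2: LOC114363046 and LOC114349984 left it in both. LOC114363046 also lost its call without the first or the second fat body library, and LOC114349984 without the first or the third midgut library or the third silk gland library. DnaJ subfamily C member 25 (LOC114357774) was above hemolymph and midgut in silk gland too, at 139, 111 and 91.3 FPKM, but not called against fat body.

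The hemolymph set held 3 of 63 members tested (8.92% of all genes). LOC114354721, a small heat shock protein that was also in the pupal set, had 43.5, 41.3 and 17.6 FPKM in hemolymph and at most 1.82 FPKM in the other tissues (smallest log2 difference 3.84, SE 0.36, adjusted p = 7.58e-05). Cdc37 (LOC114366595), which brings kinases to Hsp90, had 66.4, 88.6 and 74.7 FPKM against 14.8 to 33.4 FPKM elsewhere (1.20, SE 0.15, adjusted p = 0.000288). CCT eta-like (LOC114362476) was the third, at 15.2, 9.66 and 18.2 FPKM. All 9 CCT genes had their highest tissue mean in hemolymph, and 8 of 9 were called lower in fat body, with a median log2 difference of -1.42 against -0.02 for all genes. Scaled by recovered fragments the hemolymph set held 27 members, and the median of all genes in fat body against hemolymph moved to -1.28. The hemolymph markers (hemocytin, phenoloxidase, integrins) summed to 4623 to 7445 FPKM in these libraries and to at most 495 FPKM in the other tissues. At 1 FPKM or more were 27 of 35 in hemolymph, with 2 at 0, and 13, 26 and 19 in midgut, fat body and silk gland.

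**Figure D5:**
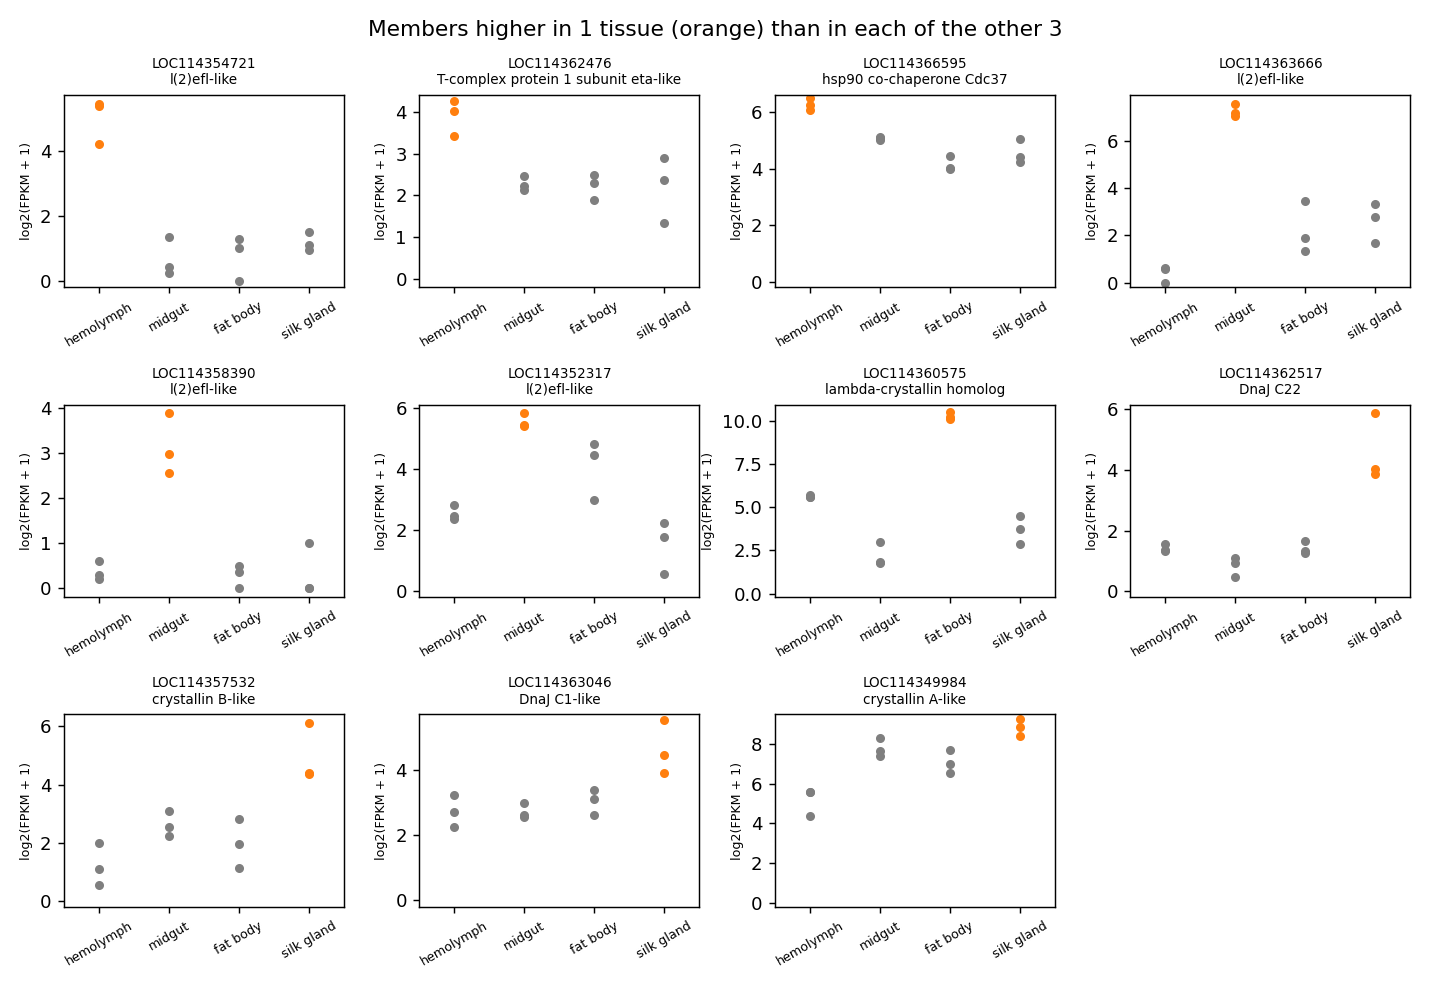
log2(FPKM + 1) (vertical axes) of the 11 members higher in 1 tissue (orange) than in each of the other 3 (grey), with each of the 3 libraries of a tissue as a point. The orange points lie above all grey ones in every panel, with the widest gap for the lambda-crystallin homolog in fat body.

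The fat body set held 1 of 60 members tested (10.3% of all genes), and this was the lambda-crystallin homolog (LOC114360575), an enzyme of sugar acid metabolism in mammals and no chaperone. It had 1110, 1459 and 1223 FPKM in fat body, 48.3, 50.6 and 47.8 FPKM in hemolymph, 6.25, 12.5 and 21.4 FPKM in silk gland and 2.42, 7.10 and 2.61 FPKM in midgut (smallest log2 difference 4.66, SE 0.17, adjusted p = 1.33e-06). The same gene was the single member of the 3rd instar set, with 306, 459 and 335 FPKM. It rose from the 1st instar by 2.98 (SE 0.32, adjusted p = 0.00199) and fell by 2.92 to the 5th (SE 0.38, adjusted p = 0.0061). Fat body markers summed to 359 to 610 FPKM in the 1st instar, 5229 to 9028 FPKM in the 3rd and 2074 to 11857 FPKM in the 5th, with 5, 6 and 7 of 7 at 1 FPKM or more and 0 of 7 at 0 in each, and their part was not tested. T-complex protein 11-like protein 1 (LOC114359353), the other member that is no chaperone, stayed between means of 1.24 FPKM in the adult and 7.17 FPKM in hemolymph. Among chaperones proper, the DnaJ homolog shv (LOC114363949) had its highest mean in fat body, at 213 FPKM, above hemolymph by 1.35 on the log2 scale (SE 0.23, adjusted p = 0.00203). This order rests on the authors' scaling: with recovered fragments as scale, 0 of 26 DnaJ genes had their highest tissue mean in fat body.

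A list of 27 further chaperone genes that the words of the rule do not catch (prefoldins, tubulin chaperones, the nascent polypeptide-associated complex, endoplasmic reticulum chaperones and others) was counted in the same tests. From embryo to 1st instar 12 of 27 rose and 2 fell, with a median of 0.61 on the log2 scale, while scaled by recovered fragments 2 rose and 12 fell, with a median of -0.58. Prefoldin, which hands unfolded actin and tubulin to CCT, had its subunit 2 (LOC114351643) at 32.4 FPKM on average in embryos and 103 FPKM in the 1st instar, and its subunit 1 (LOC114362854) at 31.6 and 115 FPKM. In fat body, where 5 of 26 DnaJ and 0 of 9 CCT genes had their highest tissue mean (0 and 0 when scaled by recovered fragments), the endoplasmic reticulum chaperones BiP (LOC114354179) and endoplasmin (LOC114355012) had their highest tissue means, at 680.4 and 476 FPKM. These means hold the authors' scaling, with factors of 0.541 to 0.580 in fat body, 0.778 to 0.992 in midgut and 1.61 to 1.76 in hemolymph. The tissue order of BiP and endoplasmin with recovered fragments as scale was not tested. In the step from 3rd to 5th instar, where 9 small heat shock proteins rose, 0 of 25 of these genes were called in limma or limma-voom in either direction, with 3 higher and 1 lower at an unadjusted p under 0.05 in limma.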

How the data were processed

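RNA from 30 libraries, 3 for each of 6 stages and 4 tissues, was sequenced as read pairs after poly-A selection. For cleaning and alignment the authors name fastp and HISAT2 (2.0.5 per the labels), and for expression levels RSEM. They deposited 1 table of FPKM per gene model, whose header names no unit. The unit was found from the values: multiplied by gene length, 100% of those worth up to 200 fragments were within 0.02 of a whole multiple of 1 amount per library. Fragments were recovered from that amount. Coordinates are those of the table, on scaffolds of the species' assembly. No source used here states strand use. RSEM with default settings, as the study's methods have it, divides reads that match several genes by estimated shares, but the recovered fragments are whole, so how such reads entered this table is uncertain. Of the members, 77 have an entry in RefSeq's gene table, which was used for names only.

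As the table holds FPKM, limma-trend (limma 3.58.1, R 4.3.3) was run on log2(FPKM + 1), in place of the count test planned for counts. A gene was tested if 3 libraries of the fit reached 1 FPKM (2 where 1 was left out). Each pair of groups was fitted on its 6 libraries, and an F test compared all stages or all tissues. Calls need a log2 difference of 1 or more and an adjusted p, taken over every gene tested, under 0.05. A group's set holds the members called higher than in every other stage or tissue. The members, classes and lists were chosen with earlier results of these data known. A few descriptions (heat shock protein beta, Hsp-12.2, 60A and 75 kDa) were put in their class after the table was read.

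Genes were named by rule: the cognates, heat shock protein 83, the mitochondrial chaperonins, heat shock factor and CCT by role, the most abundant member of each class, up to 5 members of each set, and up to 3 called members per direction and step between stages. Other genes named were chosen after their values were seen.

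Same-numbered libraries deviated together in the 1st and 3rd instar only (correlations of 0.38, 0.67 and 0.14 for replicates 1, 2 and 3), where the number was then used as a block beside the result. The alternatives were another pseudocount (0.1), no filter, all libraries in 1 fit, the block, scaling by recovered fragments or medians of ratios, limma-voom on recovered fragments, and leaving out each library. Scripts were tested on simulated data. Figures were drawn with matplotlib 3.10.9 in Python 3.11.15 (numpy 2.4.6, pandas 2.3.3).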

Additional observations from a re-analysis of the deposited data

How the results depend on the processing

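Precision is limited by 3 pooled samples per group and, for members below about 1 FPKM, by few fragments. Intervals of counting are not given, and limits for a count of 0 cover counting error only. Scaling mattered most, since the FPKM hold a scaling by the authors that differs between embryo and silk gland libraries by several fold. With recovered fragments as scale the counts of members became 11 higher and 34 lower in 1st instar than embryo, 9 lower in 3rd than 1st instar, 19 higher and 3 lower in pupa than 5th instar and 6 higher and 39 lower in adult than pupa. The sets became 18 for embryo, 2 for 1st instar, 2 for 5th instar, 7 for pupa, 1 for adult, 27 for hemolymph and 2 for silk gland, and LOC114350110 in the adult set went from 1.24 to -0.0032 against the embryo. Which scale is closer to the RNA content of a cell was not tested.

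With a pseudocount of 0.1, 7 members were higher in 5th than 3rd instar and 12 made up the embryo set. With limma-voom these were 5 and 11. In limma without the filter 0 members were lower in 3rd than 1st instar, and with it 10 had an unadjusted p under 0.05 in that direction, 1 of them called (also 1 in limma-voom). With all libraries in 1 fit 2 members were lower in that step and the 5th instar set held 2.

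Leaving out a library gave 21 to 25 members higher and 17 to 20 lower in 1st instar than embryo, 1 to 3 and 0 to 2 in 3rd than 1st instar, 5 to 13 and 1 in 5th than 3rd instar, 4 to 8 and 6 to 8 in pupa than 5th instar and 11 to 13 and 21 to 23 in adult than pupa. The sets ranged from 4 to 10 for embryo, 0 to 1 for 1st instar, 0 to 3 for 5th instar, 1 to 4 for pupa, 3 to 5 for adult, 3 to 4 for hemolymph, 2 to 3 for midgut and 2 to 5 for silk gland, and stayed at 1 for 3rd instar and fat body. From 69 to 71 members differed among stages and 42 to 49 among tissues. The libraries that moved a count by over 1.5 times were embryo 3 (embryo set 10), 1st instar 1 (1 higher and 2 lower in 3rd than 1st instar), 1st instar 2 (0 lower), 1st instar 3 (1 higher, 0 lower), 3rd instar 1 (2 lower in that step, 5th instar set 3), 3rd instar 2 (1st instar set 1), 3rd instar 3 (0 lower), 5th instar 1 (7 higher in 5th than 3rd instar, 8 higher in pupa, pupal set 4), 5th instar 2 (7 higher, 5th instar set 0), 5th instar 3 (5 higher, 5th instar set 0, pupal set 1), pupa 1 and pupa 3 (pupal set 1 each), adult 1 (adult set 5) and silk gland 2 (silk gland set 2).

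With the replicate block, 3 members were higher and 1 lower in 3rd than 1st instar, and 9 were higher in 5th than 3rd instar. The paired fit changed the call of no other named gene than LOC114354259 and LOC114358387. Of the values of single genes under all alternatives, 1605 kept their side of the threshold and, where it was compared, their direction. Of the rest 55 lost the call, 13 gained it and 1 changed sign. For the ranges over stages or tissues only the call was compared, and not which group was highest.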
